A study of Mus musculus with 2 samples.

Results

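The collagen genes described here are all features whose symbol is Col, a number, the letter a and a number. The rule found 44 of the 32289 features in the deposited tables, and all 44 are counted in the placing by class below, though not every gene is named. They were measured in nuclei from the anterior hypothalamus with its preoptic area, taken from male mice at 2 ages. The aged library pooled tissue of 5 mice of 22 months, and the young library pooled tissue of 5 mice of 3 months that the labels call wild-type. No transgene or treatment is given for either group, and the sources used here name no strain. Both pools had myelin removed with beads and were sorted for DAPI-stained nuclei, which could change the shares of glia and vascular cells. There was 1 library per age, so effects of age, of the mice pooled and of the library preparation cannot be told apart, and no difference has a replicate check. Each ratio below is the aged level over the young level, and the 95% interval after it is an exact binomial interval that covers counting error only.

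Collagens are extracellular proteins whose chains wind around each other into a rod. Fibrillar collagens form the fibrils of connective tissue. Collagen IV forms the network of the basement membrane around vessels and beneath the meninges, collagen VI forms beaded filaments, and FACIT collagens attach to fibrils. Multiplexins sit in basement membranes, and transmembrane collagens such as Col25a1 span the cell membrane and can be shed from it. In the brain, fibroblasts of the meninges and vessel walls are the textbook source of fibrillar collagen, and the cells of vessels are that of collagen IV. Collagens made by neurons and glia have been studied mostly for synapses, axon growth and attachment of precursors.

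After the rule of at least 500 genes and at most 5% mitochondrial counts, 8597 aged and 10437 young nuclei were kept, with a median of 5699 and 5567 unique molecular identifiers (UMIs, each a counted RNA molecule). They held 34698 and 41286 collagen UMIs. The 2 libraries shared 25 barcodes among the nuclei kept. After removal of 368 and 489 called doublets, clusters were formed without the collagen genes and named from marker lists, so each name below means a nucleus like that type. The named nuclei comprised 4998 aged and 6427 young neurons, 1881 and 2134 oligodendrocytes, 183 and 253 oligodendrocyte precursors, 155 and 387 astrocytes and 412 and 477 microglia. The smaller classes were endothelial cells (21 and 24 nuclei), mural cells of the vessel wall (29 and 38), fibroblasts (17 and 96) and border macrophages (15 and 24). A shallow cluster led by Oxt, Avp and ribosomal genes, with 518 aged and 88 young nuclei, was left unnamed and out of all comparisons. Levels are UMIs of a gene as counts per 1000000 UMIs of the class in that library (CPM). They are shares of nuclear RNA and say nothing of protein.

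Collagen genes took a larger share of RNA in fibroblasts than in the other classes. Their summed level was 3786 CPM in aged and 3727 CPM in young fibroblasts. Mural cells followed with 1442 and 865 CPM. Neurons had 649 and 622 CPM, and precursors had 647 and 641 CPM. Endothelial cells held 422 and 429 CPM, microglia 378 and 508 CPM, astrocytes 316 and 334 CPM, and oligodendrocytes 181 and 137 CPM. Border macrophages held 1 aged and 4 young collagen UMIs. Because neurons were many and deep, they still held most collagen UMIs, 30224 aged and 34704 young.

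**Figure D1:**
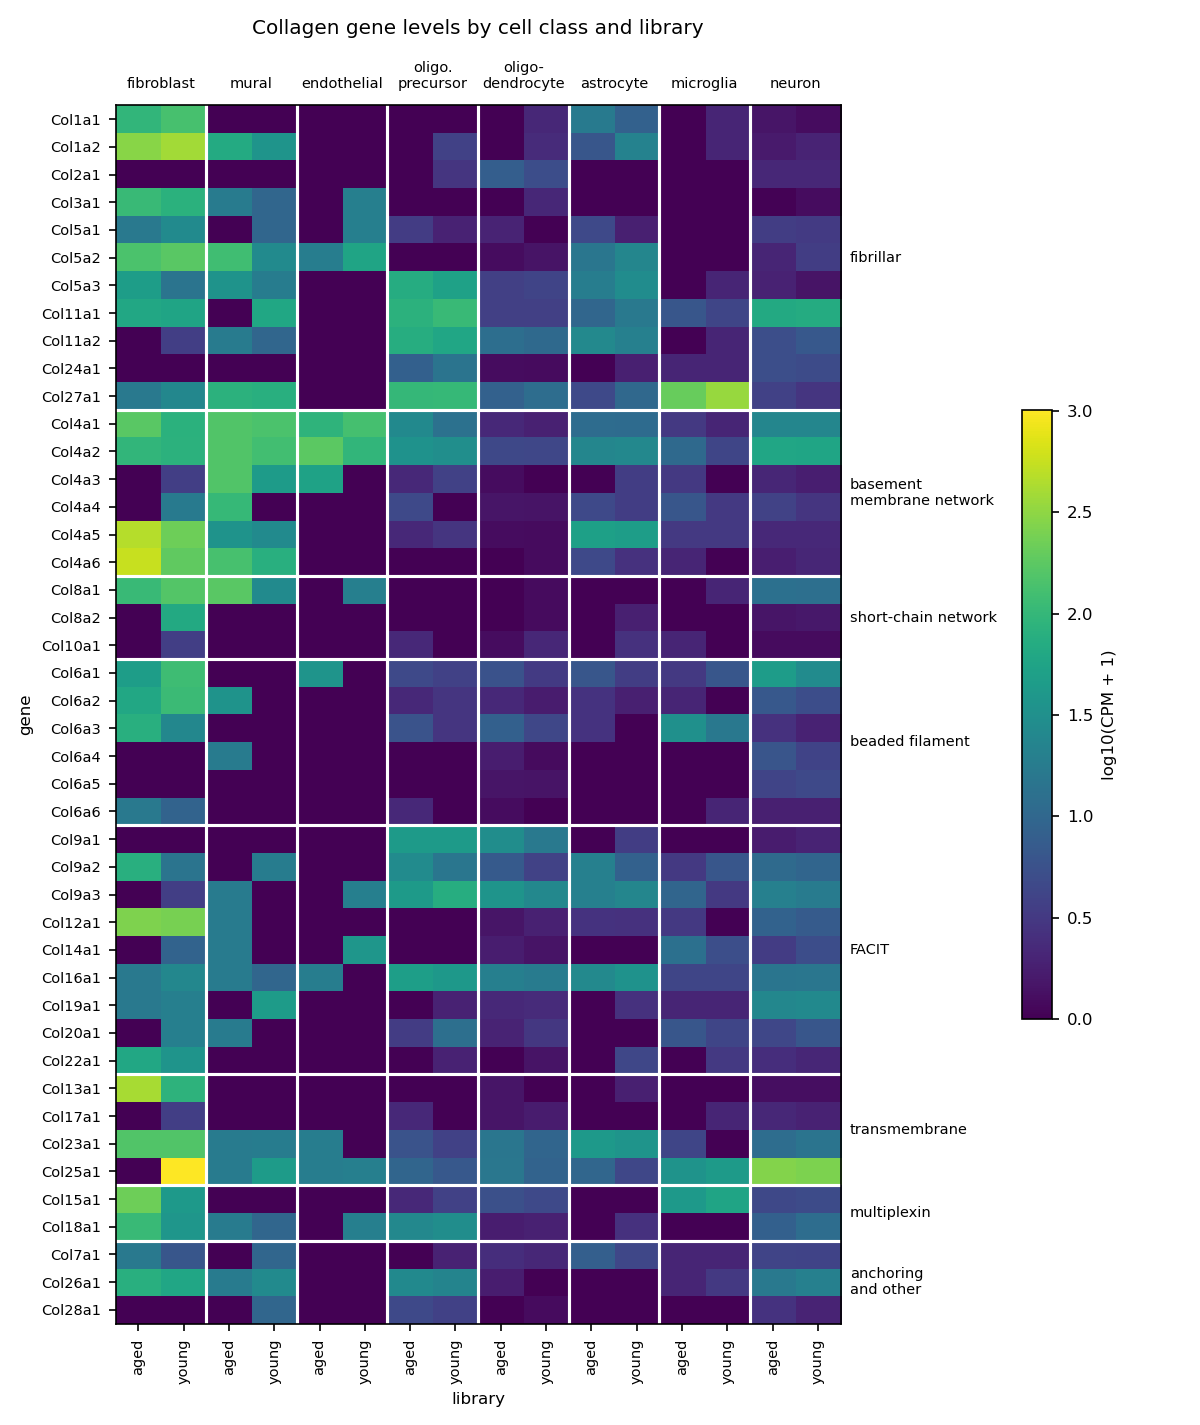
Level of each of the 44 collagen genes in 8 classes of nuclei, grouped by role on the vertical axis, with the aged and the young library side by side for each class. The colour is log10 of CPM plus 1. Brighter cells are higher. Col1a1, Col1a2 and Col3a1 are brightest in fibroblasts, and Col25a1 stands out in neurons of both libraries and in the fibroblasts of the young library.

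Each gene was placed in the class of its highest level over both libraries, among classes with at least 10 of its UMIs. By this rule 21 of the 44 genes fell in fibroblasts, 9 in neurons, 8 in oligodendrocyte precursors, 2 each in mural cells and microglia, and 1 each in endothelial cells and oligodendrocytes. The class was the same in each library alone for 12 of the 21 placed in fibroblasts, 6 of the 9 placed in neurons and 7 of the 8 placed in precursors. The 8 placed in precursors were Col9a1, Col9a3, Col11a1, Col11a2, Col5a3, Col16a1, Col20a1 and Col24a1. The 9 placed in neurons were Col19a1, Col4a4, Col6a4, Col6a5, Col6a6, Col7a1, Col10a1, Col17a1 and Col28a1. For 7 of these 9, no other class reached 10 UMIs, so the placing says little of classes with few nuclei. Col4a4, for one, had 2.90 and 1.92 CPM in neurons, but 102 CPM in aged mural cells, from 6 UMIs. Col10a1 had 24 UMIs in all neurons. In neurons, 15 of the 44 genes stood above their level in near-empty barcodes (at most 100 UMIs, a measure of free RNA) in both libraries, and 10 stood below it in both. The placing and these counts describe the collagen genes only, since no share over all genes is given.

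Fibroblasts formed 2 clusters that differed in which collagens they held. One, led by Slc7a11, Ranbp3l, Slc6a13 and Dcn, had 17 aged and 64 young nuclei. The other, led by Bnc2, Adamtsl3 and Slc47a1, had 32 young nuclei and 0 aged nuclei. Their summed collagen levels were alike, at 3786 CPM in the aged and 3662 CPM in the young nuclei of the shared cluster and 3775 CPM in the cluster of young nuclei alone. Median depth was 2498, 2022 and 5631.5 UMIs per nucleus in that order. Of the fibroblast markers, the transporter gene Slc6a13 had 73, 192 and 0 UMIs and the transporter gene Slc47a1 had 0, 2 and 230. Dcn had 91, 171 and 14 UMIs, Ranbp3l had 38, 266 and 3, and Bnc2 had 0, 8 and 794. The fibroblast name of the young-only cluster thus rests on part of the markers, with Slc6a13, Dcn and Ranbp3l low or absent there. The single genes are a description of these clusters, since the young-only cluster is 1 library's alone.

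The basement membrane genes Col4a5 and Col4a6, whose chains join in 1 network, marked the shared cluster. Col4a5 had 30 UMIs in its aged nuclei, 82 in its young nuclei and 0 in the young-only cluster. Col4a6 had 36, 68 and 1. Both libraries held them, and within the shared cluster the ratio was 0.922 (0.586 to 1.42) for Col4a5 and 1.33 (0.865 to 2.03) for Col4a6. Lama1, which encodes a laminin chain that lies beside collagen IV in basement membranes, followed the same split with 111, 143 and 0 UMIs. The transmembrane gene Col13a1 had 26, 33 and 0 UMIs, and the multiplexin genes Col15a1 and Col18a1 had 14, 15 and 0 and 7, 14 and 0.

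The young-only cluster held the transmembrane gene Col25a1 instead. It had 378 UMIs there, 1768 CPM, spread over 24 of the 32 nuclei with at most 54 in a single nucleus. The shared cluster had 2 Col25a1 UMIs in young nuclei and 0 in aged nuclei. Col8a2, a short-chain collagen of the basement membrane beneath the corneal endothelium, had 0, 1 and 24 UMIs. Col6a1 had 3, 8 and 36 and its partner chain Col6a2 had 4, 12 and 30. The FACIT gene Col12a1, which coats fibrils, had 17, 11 and 80 UMIs, but 47 of the 80 came from a single nucleus. The fibrillar genes of collagen I were in both clusters, with 19, 71 and 75 UMIs for Col1a2 and 6, 23 and 28 for Col1a1. Fibronectin (Fn1) and Tll1, a protease that trims procollagen, went with the young-only cluster, at 0, 10 and 72 and 2, 0 and 94 UMIs.

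**Figure D2:**
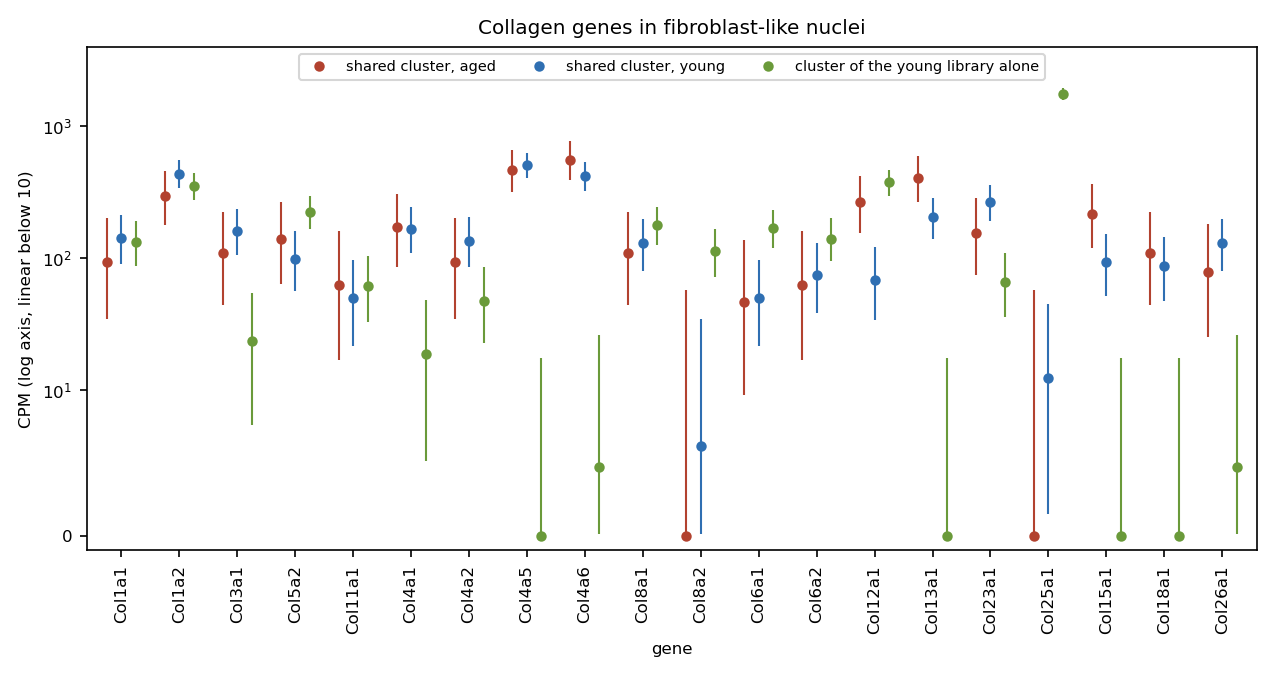
Levels (CPM on a log axis that is linear below 10, with exact Poisson 95% intervals) of collagen genes in 3 sets of fibroblast nuclei, which are the 17 aged and 64 young nuclei of the shared cluster and the 32 nuclei of the cluster of the young library alone. Col4a5, Col4a6 and Col13a1 are high in both sets of the shared cluster, and Col25a1 is high in the young-only cluster at 1768 CPM.

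Between ages, all fibroblasts together gave a summed collagen ratio of 1.02 (0.883 to 1.16), which became 1.39 (1.21 to 1.60) without Col25a1. Of the 380 young Col25a1 UMIs, 378 were in the young-only cluster, whose other UMIs stayed in the young total. Within the shared cluster, the sums with Col25a1 were 3786 CPM in aged and 3662 CPM in young nuclei. Of 20 collagen genes with at least 20 UMIs, 6 were at least 1.5-fold higher and 4 at least 1.5-fold lower in the aged library, where 20.8% of all genes with that many UMIs were higher, 31% lower and 51.8% past the fold in either direction. Col25a1 had 0 aged and 380 young UMIs and was at least 21.7-fold lower, taking a floor of 3 counts for the aged library (46.6 CPM). Col13a1 (403 and 87.7 CPM) had a ratio of 4.60 (2.64 to 7.93), Col4a6 one of 3.05 (1.98 to 4.62) and Col4a5 one of 2.14 (1.36 to 3.28). These values went with the cluster of young nuclei, and within the shared cluster the ratio of Col13a1 was 1.99 (1.14 to 3.42) and the ratios of Col4a5 and Col4a6 were under 1.5. Col12a1 had a ratio of 3.90 (1.72 to 9.20) within the shared cluster, with 11 of its 17 aged UMIs in 1 nucleus.

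Collagen IV genes held most collagen UMIs of any role in mural nuclei. The 6 collagen IV genes had 43 aged and 47 young UMIs in mural cells, 48.9% of all mural collagen UMIs. Col4a1 had 9 and 16 UMIs there and Col4a2 had 9 and 14, the pair whose chains form the common network of vessel walls. Col4a3 had 9 and 5, Col4a4 had 6 and 0, and Col4a6 had 8 and 9. Endothelial nuclei had 10 and 5 UMIs of Col4a2 and 5 and 7 of Col4a1. Mural cells also held Col8a1, a short-chain network collagen of vessel walls, with 10 aged and 3 young UMIs. The summed mural collagen ratio was 1.67 (1.23 to 2.25) and that of the collagen IV genes was 1.78 (1.15 to 2.74). Neuron markers (6 of 6 found in each library) summed to 3495 CPM in aged and 12018 CPM in young mural nuclei, mural markers to 8297 and 4423 CPM, and fibroblast markers to 1900 and 1294 CPM, most of it Slc6a20a and Cped1. Free RNA was estimated at 39.1% of the aged and 20.7% of the young vascular UMIs. The part of these in the ratio was not tested. When each library was clustered alone, aged mural nuclei joined the fibroblasts, and the ratio over vascular nuclei turned from 1.30 to 0.581. Over mural and endothelial nuclei together, 0 of 2 collagen genes with at least 20 UMIs were past 1.5-fold, against 43.3% of all genes.

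Col4a1 and Col4a2 lie head to head, and their start regions are shown because both genes also followed each other across neuron types. Across 25 neuron sub-clusters, Pearson's r of their log2 levels was 0.75 (aged library) and 0.80 (young library). It was 0.70 and 0.66 for Col6a1 and Col6a2, 0.19 and 0.23 for Col11a1 and Col11a2, and 0.02 and 0.07 for Col4a1 and Col6a1. For Col9a2 and Col9a3 it was -0.22 and -0.54, and for Col11a1 and Col5a1 it was 0.20 and 0.32. Spearman's rank correlation was 0.56 and 0.67 for Col4a1 and Col4a2. It was 0.64 and 0.65 for Col6a1 and Col6a2, neighbours that lie in the same direction and not head to head. These correlations are a description, since sub-clusters share a library and differ in depth. Col4a1 and Col4a2 also overlap on opposite strands in the GENCODE M21 annotation, and the sources used here do not say whether counting used strand, so their UMIs could be split between them. The windows are from RefSeq (GRCm38.p6) and run from 250 bases before to 50 after the gene start, 5′ to 3′ on the gene's strand. Capitals mark a GC box (GGGCGG or its reverse complement CCGCCC) or a CCAAT box (CCAAT or its reverse complement ATTGG).
Col4a1, chr8:11312777-11313076, minus strand: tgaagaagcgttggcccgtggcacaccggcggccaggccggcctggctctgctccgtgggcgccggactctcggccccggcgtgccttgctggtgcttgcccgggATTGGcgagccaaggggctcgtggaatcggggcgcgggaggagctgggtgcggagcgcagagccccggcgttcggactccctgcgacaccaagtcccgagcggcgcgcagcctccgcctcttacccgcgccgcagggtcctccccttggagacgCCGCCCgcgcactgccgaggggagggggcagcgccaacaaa
Col4a2, chr8:11312555-11312854, plus strand: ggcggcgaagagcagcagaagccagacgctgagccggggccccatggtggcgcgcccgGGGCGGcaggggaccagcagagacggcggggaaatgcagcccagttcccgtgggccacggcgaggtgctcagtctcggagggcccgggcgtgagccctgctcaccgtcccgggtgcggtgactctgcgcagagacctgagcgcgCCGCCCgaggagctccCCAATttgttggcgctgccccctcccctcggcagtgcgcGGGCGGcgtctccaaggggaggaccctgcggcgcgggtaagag
The 2 windows overlap by 78 bases.

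Col4a5 and Col4a6, the pair that marked the shared fibroblast cluster, are likewise head to head, with 842 bases between their windows.
Col4a5, chrX:141475169-141475468, plus strand: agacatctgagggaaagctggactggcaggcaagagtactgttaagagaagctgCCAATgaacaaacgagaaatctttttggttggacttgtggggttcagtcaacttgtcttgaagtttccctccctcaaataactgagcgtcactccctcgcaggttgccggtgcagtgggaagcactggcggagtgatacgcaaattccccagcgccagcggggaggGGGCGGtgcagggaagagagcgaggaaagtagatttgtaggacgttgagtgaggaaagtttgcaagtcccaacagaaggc
Col4a6, chrX:141474027-141474326, minus strand: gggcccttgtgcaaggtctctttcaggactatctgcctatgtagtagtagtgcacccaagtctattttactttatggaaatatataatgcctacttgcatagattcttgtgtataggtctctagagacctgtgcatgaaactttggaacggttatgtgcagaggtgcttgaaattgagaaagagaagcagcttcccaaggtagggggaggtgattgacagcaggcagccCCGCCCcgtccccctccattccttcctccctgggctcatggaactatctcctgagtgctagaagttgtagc
RefSeq windows were found for 35 of the 44 genes, 38 windows in all. A GC box on either strand was in 60.5% of these, against 35.6% of the 32817 windows in the table. A CCAAT box was in 34.2% against 37.4%, and the letters TATAAA were in 13.2% against 13.6%. A match is a description of the letters and not of binding.

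In neurons 1 member took much of the collagen RNA. Col25a1, a transmembrane collagen that takes part in motor axon growth and synapse formation and is found in amyloid plaques, had 12936 aged and 14462 young UMIs, 278 and 259 CPM. That was 42.8% and 41.7% of neuronal collagen UMIs. It was detected in 48.4% of aged and 45.6% of young neurons, against 4.85% and 4.61% of microglia. Thinned to 1000 UMIs per nucleus, which left out 10 aged and 11 young neurons and 4 and 14 microglia, the shares were 17.3% and 16.5% in neurons and 2.40% and 2.76% in microglia. Median depth was 8353 and 7761 UMIs in neurons and 2137.5 and 1806 in microglia. Near-empty barcodes held 109 and 147 CPM of Col25a1, less than neurons in both libraries. Next by UMIs in both libraries were the fibrillar gene Col11a1 (3027 and 3889), Col4a2 (2723 and 3246), Col6a1 (2106 and 1525) and the FACIT gene Col19a1 (1091 and 1418), none of them corrected for gene length.

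Neurons were split into 28 sub-clusters, called here by their leading genes, of which 25 had at least 20 nuclei in each library. The sub-cluster led by Oxt, Avp and Sim1, with 13 aged and 16 young nuclei, was too small to enter. Of the 33 collagen genes with at least 100 UMIs in neurons, 18 had their highest sub-cluster in common between the libraries, and 14 of these were there at least 3-fold above the other neurons in both. No share over all genes is given for these counts, so they do not set collagens apart from other genes. Col25a1 had the most UMIs of any collagen in 19 aged and 20 young sub-clusters. It peaked in the Sst, Npy and Sox6 sub-cluster (29 aged and 37 young nuclei), at 1803 and 1830 CPM, 6.70-fold and 7.28-fold above the other neurons. The Vip, Rorb and Prr5l sub-cluster followed with 1014 and 781 CPM, and the Cyp19a1, Greb1 and Prlr sub-cluster with 552 and 515 CPM. Col6a5 was highest in the Sst, Npy and Sox6 sub-cluster too, at 29.7 and 29.0 CPM, from 8 UMIs in each library.

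The other peaks fell in different sub-clusters. Col19a1 reached 306 and 379 CPM in the Kit, Il1rapl2 and Egfr sub-cluster, 15.4-fold and 19.8-fold above the other neurons, and had more UMIs there than any other collagen. The fibrillar genes Col11a1 (511 and 590 CPM) and Col5a1 (27.7 and 18.1 CPM) shared the Rreb1, Gm12068 and Sgcd sub-cluster, where Drd3, a dopamine receptor gene, was another leading gene. Col26a1 reached 113 and 115 CPM in the Kcnmb2, Rnf220 and Ubash3b sub-cluster, whose leading genes include Pvalb. Col24a1 (52.5 and 42.5 CPM) and Col6a3 (26.2 and 8.31 CPM) shared the Tcf7l2, Il31ra and Gm49678 sub-cluster. Col9a3 reached 88.8 and 74.0 CPM in the Ust, A830036E02Rik and Otof sub-cluster. Col5a2 (4.63 and 16.8 CPM) and Col11a2 (12.3 and 16.7 CPM) peaked in the Tshz3, Coro6 and Gbx1 sub-cluster, Col14a1 (25.8 and 62.4 CPM) in the Npsr1, Pax6 and Trhde sub-cluster and Col15a1 (14.2 and 17.9 CPM) in the Synpo2, Rnf220 and Tcf7l2 sub-cluster. Of the 83 young Col14a1 UMIs at its peak, 46 were in 1 nucleus, and without the top nucleus of each library the peak was 18.0 and 28.3 CPM. At its peak, Col5a2 was found in 5 of 325 aged and 11 of 463 young nuclei, with 27 of 91 young UMIs in 1 nucleus. Of the 78 aged and 117 young nuclei of the Tcf7l2 sub-cluster, 8 and 12 held Col24a1 and 10 and 5 held Col6a3. The collagen genes were left out when the sub-clusters were formed. Each peak was picked as the highest of 25 sub-clusters and named by its fold in the same values, so that choice raises its height. With a finer split into 40 sub-clusters, 15 of the 33 genes had a common peak and 13 met the 3-fold, again without a share over all genes.

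**Figure D3:**
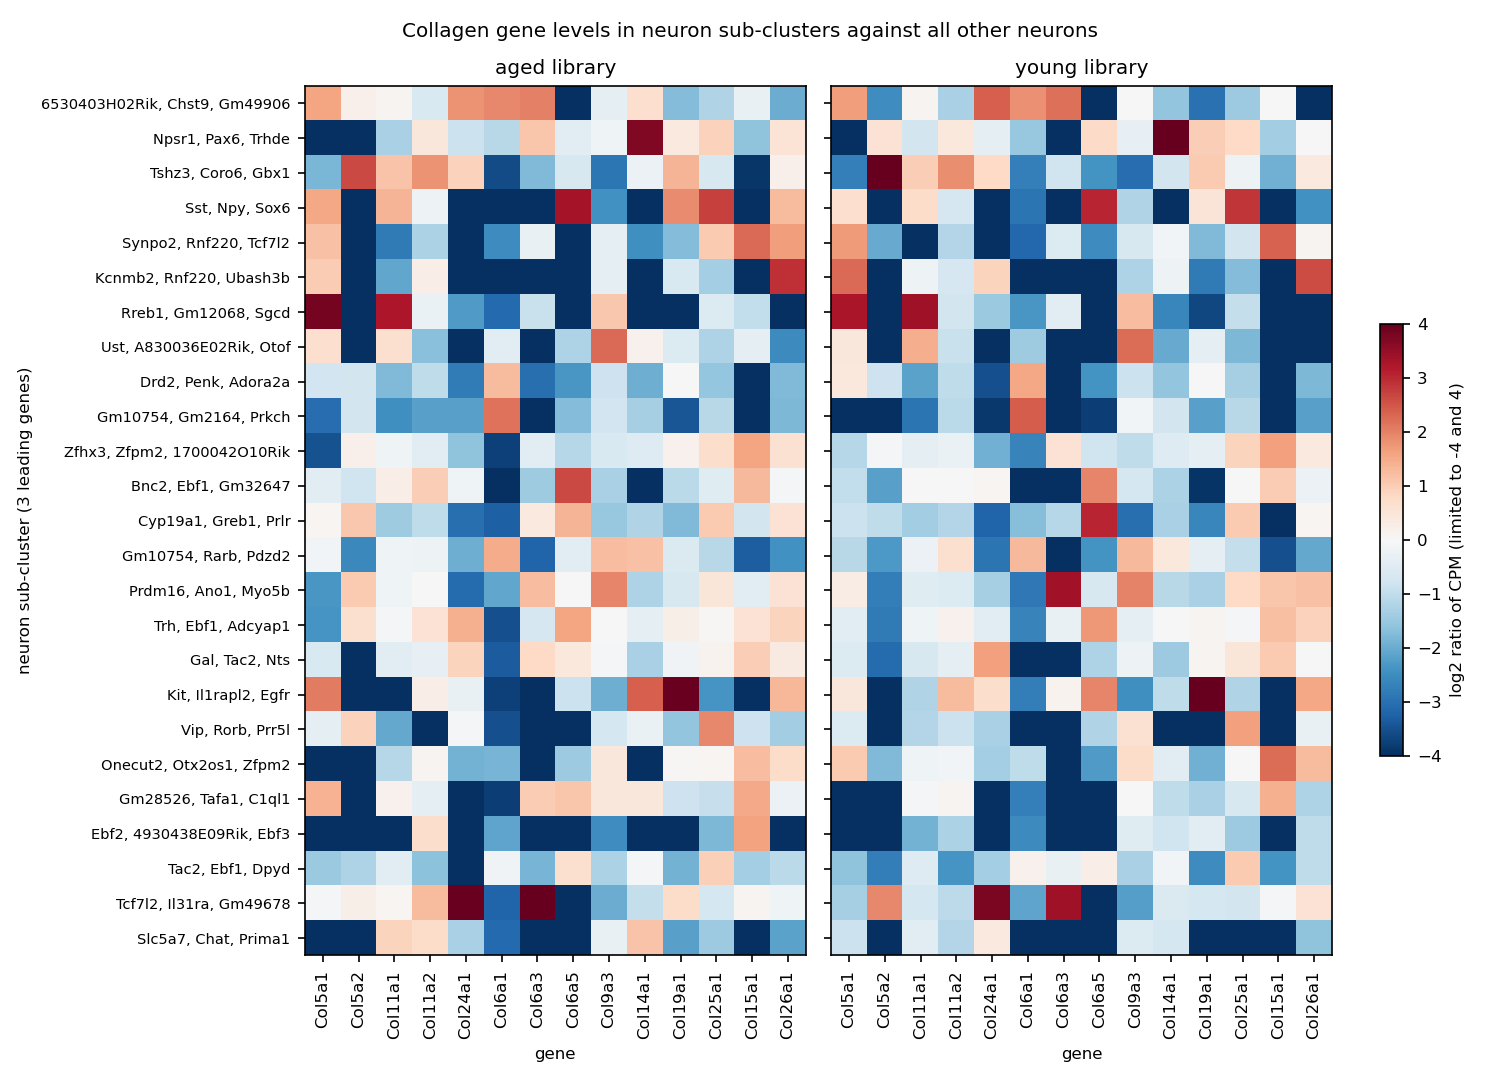
Level of collagen genes (columns) in 25 neuron sub-clusters (rows, by 3 leading genes), for the aged and the young library. The colour is log2 of the level in the sub-cluster over that in the other neurons, with the scale cut off at both ends, and the peaks of Col25a1 (Sst), Col19a1 (Kit) and Col11a1 (Rreb1) appear in both panels.

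Between ages, the collagen sum in neurons had a ratio of 1.04 (1.03 to 1.06). Of 43 collagen genes with at least 20 UMIs, 8 were at least 1.5-fold higher in the aged library, where 4.67% of 20277 genes were, and 4 were at least 1.5-fold lower, where 8.22% were. The median log2 ratio was 0.02 over the 43 and 0.01 over all genes tested. Col25a1 had a ratio of 1.07 (1.05 to 1.10), Col4a1 one of 1.02 (0.944 to 1.11), Col4a2 one of 1.01 (0.955 to 1.06) and Col11a1 one of 0.933 (0.889 to 0.978). By role, the beaded filament genes together had a ratio of 1.55 (1.47 to 1.64), the transmembrane genes 1.06 (1.04 to 1.08), the fibrillar genes 0.934 (0.895 to 0.974) and the multiplexins 0.733 (0.655 to 0.819). A single gene held most UMIs of each sum, so the sums largely give the ratio of that gene. In the same order these were Col6a1 (2106 and 1525 UMIs), Col25a1 (12936 and 14462), Col11a1 (3027 and 3889) and Col18a1 (342 and 610).

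**Figure D4:**
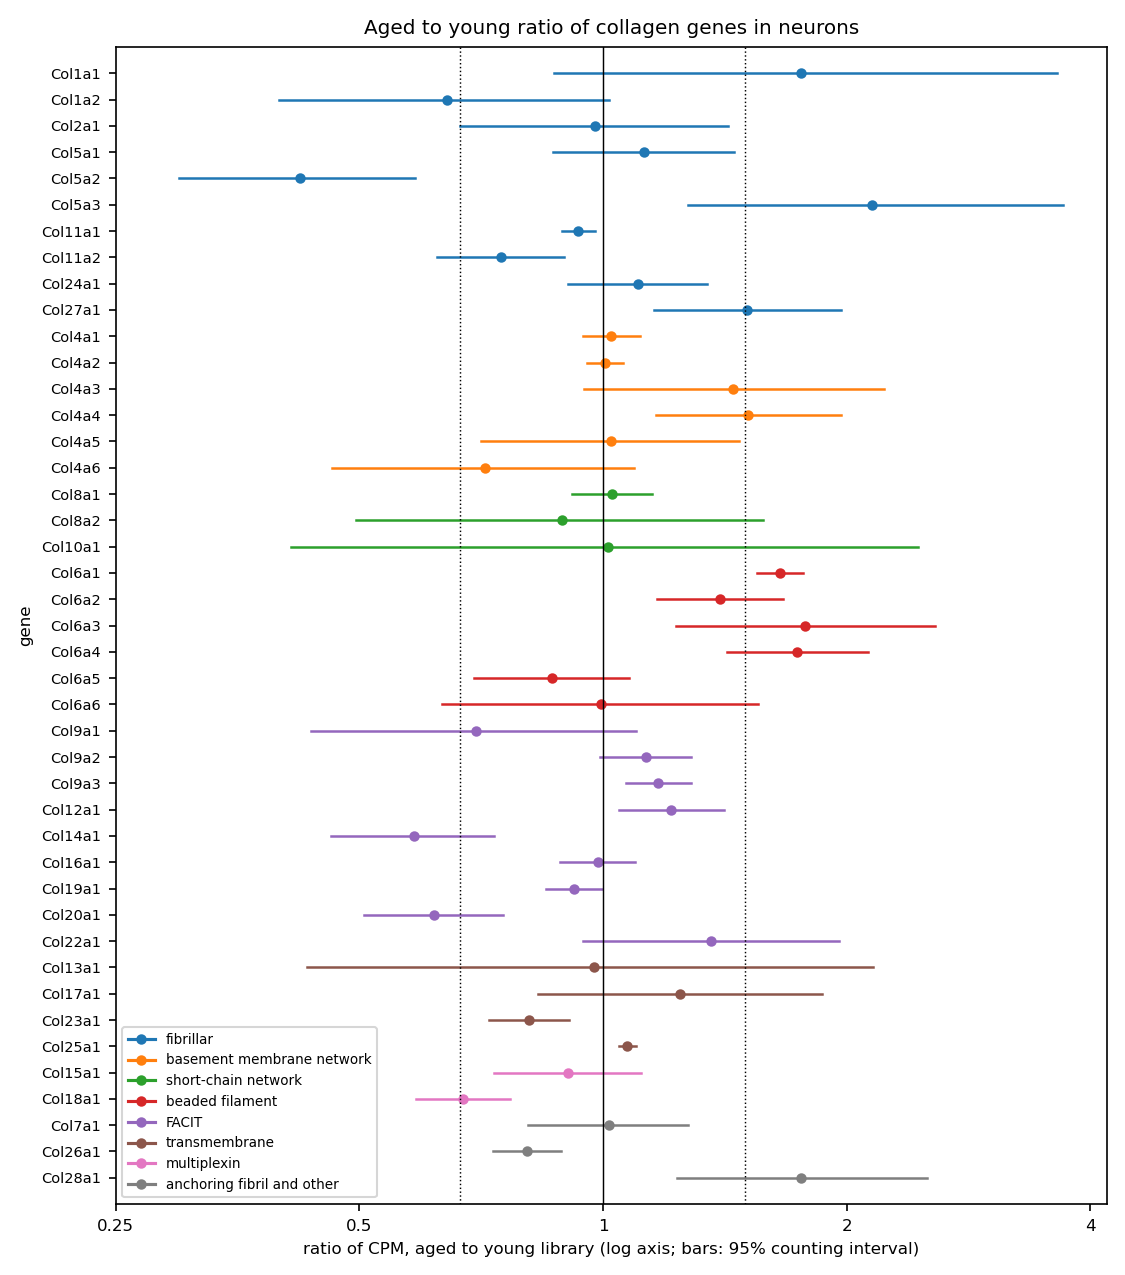
Ratio of the aged to the young level in neurons for the collagen genes with at least 20 UMIs, on a log axis, with exact binomial 95% intervals that cover counting error only. Dotted lines mark 1.5-fold. Col6a1, Col6a3, Col6a4, Col5a3 and Col28a1 lie to the right of the upper line, and Col5a2, Col14a1 and Col20a1 to the left of the lower line.

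Collagen VI chains were 3 of the 8 genes that were higher. Col6a1, the chain present in every collagen VI assembly, had 2106 aged and 1525 young UMIs, 45.2 and 27.3 CPM, a ratio of 1.65 (1.55 to 1.77). It was detected in 22.1% of aged and 15.3% of young neurons, 4.66% and 2.85% after thinning, against 0.485% and 1.05% of microglia. Near-empty barcodes held 30.1 and 32.0 CPM of Col6a1, more than the young neurons and less than the aged neurons. In GENCODE M21 no other gene overlaps Col6a1. The ratio was 1.39 (1.17 to 1.67) for Col6a2, 1.77 (1.23 to 2.57) for Col6a3 and 1.74 (1.42 to 2.13) for Col6a4. It was 0.864 (0.693 to 1.08) for Col6a5 and 0.994 (0.633 to 1.55) for Col6a6, so the ratios of the 6 chains lay on both sides of 1.

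The Col6a1 difference was found in several neuron sub-clusters. Of 14 sub-clusters with at least 20 Col6a1 UMIs, 9 were higher in the aged library, 6 of them by at least 1.5-fold, and 1 was lower by that much. The sub-cluster of its highest level, led by Gm10754, Gm2164 and Prkch, had 166 and 114 CPM. The 6530403H02Rik sub-cluster had 149 and 88.2 CPM, a ratio of 1.69 (1.41 to 2.03). The Gm10754, Rarb and Pdzd2 sub-cluster, with Drd1 among its leading genes, had 105 and 58.6 CPM, a ratio of 1.79 (1.56 to 2.07), and the Drd2, Penk and Adora2a sub-cluster had 96.0 and 67.0 CPM, a ratio of 1.43 (1.24 to 1.65). The Ust sub-cluster had 33.6 and 10.3 CPM. In the Cyp19a1 sub-cluster the aged level was the lower, at 4.86 and 8.61 CPM from 9 and 20 UMIs. Col6a4 was at least 1.5-fold higher in 5 of 5 sub-clusters with enough UMIs. Its interval included 1 in the Trh, Ebf1 and Adcyap1 (0.962 to 3.29) and the Tac2, Ebf1 and Dpyd (0.711 to 3.99) sub-clusters, and lay above 1 in the others. Near-empty barcodes held 4.36 and 2.91 CPM of Col6a4, against 5.26 and 3.03 CPM in all neurons, and their part was not tested. With each sub-cluster weighted by its UMIs pooled over both libraries, so that both libraries had the same mix, the ratio of Col6a1 was 1.54.

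**Figure D5:**
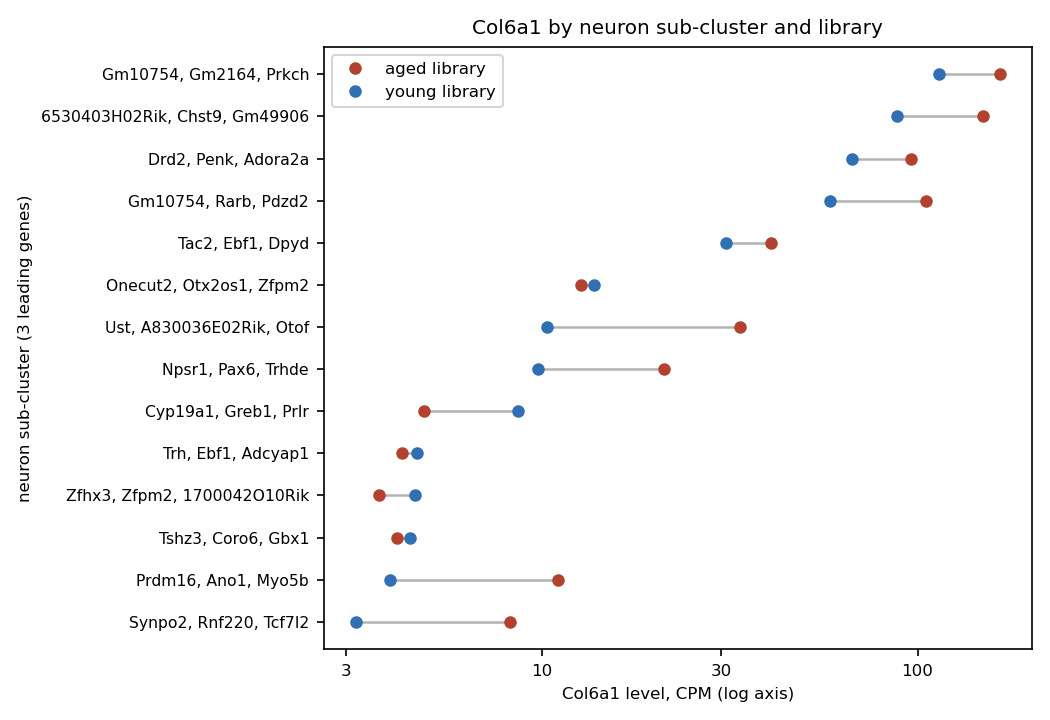
Level of Col6a1 (CPM, log axis) in the neuron sub-clusters with at least 20 Col6a1 UMIs, named by 3 leading genes, with a line joining the aged and the young library. The 4 sub-clusters with the highest levels, from 96.0 to 166 CPM in the aged library, are each higher there than in the young library.

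The other genes past the fold in neurons had low counts. Col5a3, a fibrillar chain, had 43 aged and 24 young UMIs and a ratio of 2.15 (1.27 to 3.70). Col28a1, a collagen of peripheral nerve, had 82 and 56 and a ratio of 1.75 (1.23 to 2.51). Col4a4 (135 and 107) and Col27a1 (132 and 105) had ratios of 1.51 (1.16 to 1.97) and 1.51 (1.16 to 1.97), at the fold itself, and both were under 1.5 when doublets were kept. Without 1 sub-cluster each, the ratio was 1.12 (0.834 to 1.51) for Col27a1 (Synpo2 sub-cluster, 42 and 7 UMIs) and 1.30 (0.962 to 1.77) for Col4a4 (Gal sub-cluster). Col1a1 had 22 and 15 UMIs. Near-empty barcodes held 1.31 and 1.16 CPM of Col5a3, 1.74 and 1.16 CPM of Col28a1 and 7.42 and 6.40 CPM of Col27a1. Neurons had 0.924 and 0.430 CPM, 1.76 and 1.00 CPM and 2.84 and 1.88 CPM of these genes. On the lower side, the fibrillar gene Col5a2 had 50 aged and 142 young UMIs and was 2.37-fold lower (1.71 to 3.34), with 27 of the young UMIs in 1 nucleus and a value of 2.18-fold (1.53 to 3.16) without the top nucleus of each library. It was 1.35-fold lower (0.851 to 2.17) without the Tshz3 sub-cluster. Its neuron levels of 1.07 and 2.55 CPM lay under the 1.31 and 3.49 CPM of near-empty barcodes, which were also lower in the aged library. The FACIT gene Col14a1 had 112 and 230 UMIs and was 1.71-fold lower (1.36 to 2.17), or 1.46-fold (1.14 to 1.88) without the top nucleus of each library, which held 46 UMIs in the young, and 1.37-fold (1.05 to 1.80) without the Npsr1 sub-cluster. Col20a1, another FACIT gene, had 156 and 302 UMIs, was 1.62-fold lower (1.33 to 1.97) and was lower in 7 of 9 sub-clusters. Its levels of 3.35 and 5.41 CPM were close to the 3.05 and 4.66 CPM of near-empty barcodes. The part of free RNA in these differences was not tested. Col1a2 had 30 and 56 UMIs and was 1.56-fold lower (0.983 to 2.51), while near-empty barcodes held 0 aged and 7.57 CPM young of it. Its ratio was 1.67 with an estimate of free RNA subtracted, so its direction was not stable. It was 1.44-fold lower (0.804 to 2.64) without the Trh sub-cluster. Col18a1, the multiplexin that yields endostatin, had 342 and 610 UMIs, a ratio of 0.672 (0.587 to 0.768), just inside the fold, and was lower in 8 of 10 sub-clusters.

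In oligodendrocyte precursors, fibrillar genes were among those with most collagen UMIs in both libraries. The fibrillar gene Col27a1 had 81 aged and 108 young UMIs (98.6 and 102 CPM), Col11a1 had 69 and 115 (84.0 and 109 CPM), Col11a2 had 61 and 62 (74.3 and 58.8 CPM) and Col5a3 had 59 and 54 (71.8 and 51.2 CPM). The summed ratio was 1.01 (0.899 to 1.13). Of 13 collagen genes with at least 20 UMIs, 2 were higher (Col4a1 and Col9a2) and 2 lower (Col9a3 and Col24a1) by at least 1.5-fold, where 11% of all genes were higher, 10.1% lower and 21.1% past the fold in either direction. The FACIT chain Col9a3 had 35 and 77 UMIs and was 1.71-fold lower (1.14 to 2.63). A finer clustering put 31 of the 77 young UMIs in 20 young nuclei with markers of committed precursors, at 240 CPM, and 2 aged nuclei of that kind held 0. The remaining precursors had 43.1 CPM of Col9a3 in the aged and 49.7 CPM in the young library.

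In oligodendrocytes, chains of collagen IX, a FACIT collagen, were among those with most UMIs. Col9a3 had 141 aged and 106 young UMIs and Col9a1 had 117 and 68. The summed collagen ratio was 1.33 (1.19 to 1.48), and 1.19 with doublets kept. Of 15 collagen genes with at least 20 UMIs, 7 were at least 1.5-fold higher, where 10.3% of all genes were, and 0 were lower, where 4.59% were. The median log2 ratio of all genes tested was 0.10. Col9a1 had 28.6 and 15.5 CPM, a ratio of 1.85 (1.36 to 2.53), with near-empty levels of 3.05 and 0.582 CPM. Col23a1, a transmembrane collagen, had a ratio of 1.64 (1.07 to 2.54). Col25a1 had one of 1.81 (1.17 to 2.84), with 14.4 and 7.96 CPM. That is far under its near-empty level, and with doublets kept the ratio was 1.14. The 4 others, Col2a1, Col6a1, Col6a3 and Col9a2, had under 50 UMIs each. Neuron markers summed to 1141 CPM in aged and 854 CPM in young oligodendrocytes, and an estimate of free RNA gave 12.1% and 6.53% of their UMIs. Their part in the ratios was not tested.

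Microglia held mainly Col27a1, a fibrillar collagen known from cartilage. It had 188 aged and 323 young UMIs, 53.0% and 67.9% of microglial collagen UMIs. The level was 200 CPM in the aged and 345 CPM in the young library, 1.72-fold lower (1.43 to 2.07) in the aged. It was detected in 33.0% and 43.4% of microglia, and in 17.8% and 27.8% after thinning, against 1.72% and 1.28% of neurons, or 0.271% and 0.200% after thinning. Near-empty barcodes held 7.42 and 6.40 CPM. Of 4 collagen genes with at least 20 UMIs, 1 was higher (Col6a3, 29 and 14 UMIs, ratio 2.07) and 1 lower (Col27a1) by at least 1.5-fold, where 12.2% of all genes were higher, 8.11% lower and 20.3% past the fold in either direction. Col15a1, a multiplexin, had 38 and 52 UMIs, a ratio of 0.729 (0.467 to 1.13).

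Astrocytes held the basement membrane gene Col4a5 at 49.7 CPM in the aged and 45.6 CPM in the young library, from 28 and 54 UMIs, against 1.25 and 1.22 CPM in neurons. The ratio was 1.09 (0.664 to 1.75). Of 11 collagen genes with at least 20 UMIs, 1 was higher (Col9a2) and 4 lower by at least 1.5-fold, where 13.4% of all genes were higher, 9.6% lower and 23% past the fold in either direction. The 4 were the fibrillar genes Col1a2 (3 and 24 UMIs), Col5a2 (8 and 27), Col5a3 (10 and 33) and Col11a1 (5 and 18), each under 50 UMIs, and 3 of their 4 intervals reached a ratio of 1. Free RNA was estimated at 15.2% of the aged and 5.05% of the young astrocyte UMIs. With it subtracted, 1 of 9 genes was past the fold, and it was lower. No share over all genes is given for that setting.

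The genes that build, cut and bind collagen were taken from 6 lists and counted the same way. In neurons, where 4.67% of all genes were higher and 8.22% lower, 0 of 18 synthesis genes were higher and 1 lower, 1 and 1 of 11 processing genes, 0 and 1 of 8 receptors, 0 and 2 of 12 breakdown genes and inhibitors, 2 and 0 of 13 basement membrane partners, and 1 and 2 of 10 fibril partners. Itga10, a collagen-binding integrin chain, had 339 aged and 717 young UMIs and was 1.77-fold lower (1.55 to 2.01). Timp3 and Timp4, inhibitors of the proteases that cut matrix, had 2016 and 3847 and 1244 and 2432 UMIs and were 1.59-fold (1.51 to 1.68) and 1.63-fold (1.52 to 1.75) lower. The near-empty levels of both also differed, at 27.0 and 66.9 CPM for Timp3 and 22.2 and 43.6 CPM for Timp4, against 43.3 and 69.0 and 26.7 and 43.6 CPM in neurons, and their part in the difference was not tested. Tnxb, a matrix protein that binds fibrils, had 261 and 187 UMIs, a ratio of 1.67 (1.38 to 2.03). Ogn and Fn1, typical of fibroblasts, had 23 and 70 and 38 and 86 UMIs in neurons. P4ha1, a subunit of the prolyl hydroxylase that stabilises the collagen rod, was 2.17-fold lower (1.88 to 2.52) in aged oligodendrocytes, from 264 and 616 UMIs, and 1.72-fold lower (1.28 to 2.33) in astrocytes, from 59 and 213. Of 12 synthesis genes in oligodendrocytes, 0 were higher and 2 lower, where 10.3% and 4.59% of all genes were. Of 14 in astrocytes, 1 was higher (P4hb) and 2 lower, where 13.4% and 9.6% of all genes were. In microglia, Sparc, a collagen-binding matrix protein, had 437 and 671 UMIs and was 1.54-fold lower (1.36 to 1.74), and Colgalt1, which adds galactose to collagen, had a ratio of 1.58 (1.11 to 2.27). There, 12.2% of all genes were higher and 8.11% lower. By list it was 1 and 0 of 10 synthesis genes, 0 and 1 of 3 receptors and 0 and 1 of 2 fibril partners. Of 3 basement membrane partners, 0 were higher and 2 lower (Lamc1 and Nid2). The 5 breakdown genes and 1 processing gene had 0 past the fold.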

How the data were processed

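Nuclear RNA of 2 libraries was measured by droplet sequencing on the 10x Genomics platform. The authors deposited unnormalised counts of UMIs per gene and barcode, unfiltered, and the matrices name Cell Ranger 4, per the file headers. The sources used here do not give the genome build, the annotation, or how intronic reads and strand were treated. Here, barcodes with at least 500 genes and at most 5% mitochondrial UMIs were kept. Doublets were called with Scrublet in scanpy 1.11.5 and removed. Nuclei were clustered without the 44 collagen genes (2000 variable genes, 30 components, Leiden resolution 1) and named from fixed markers.

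UMIs were summed per class and library. With 1 library per age no test across libraries was run. Ratios of CPM have exact conditional binomial intervals, levels have exact Poisson intervals and shares exact Clopper-Pearson intervals, at 95%. A ratio needed 20 UMIs over both libraries. A gene was called past 1.5-fold. Placing a gene in a class needed 10 UMIs there. Genes named for age had 50 UMIs and were ordered by the interval bound nearest a ratio of 1, at most 8 in each direction per class; other genes are named to describe counts or levels and were chosen after their values were seen. Sub-cluster peaks were named where both libraries had the same top sub-cluster at 3 times the other neurons. Counting was tested on Poisson counts simulated without clumping in nuclei, the model that the intervals assume. Their coverage in these data was not tested. Members and lists were chosen with earlier results of these data known. Alternatives covered depth, mitochondrial limit, doublets, resolution, scaling, free RNA, top nuclei, weights, left-out sub-clusters, minimum UMIs and fold.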

Additional observations from a re-analysis of the deposited data

Results flagged for a closer look

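Col25a1 differed between the libraries in opposite directions in 2 classes. Its ratio of aged to young was 1.81 in oligodendrocytes, from 59 and 35 UMIs, and 0 in fibroblasts, from 0 and 380 UMIs. The oligodendrocyte levels of 14.4 and 7.96 CPM lay under the 109 and 147 CPM of near-empty barcodes, and the ratio was 1.14 with doublets kept. In fibroblasts, 378 of the 380 young UMIs were in the cluster with 0 aged nuclei. Col27a1 had a ratio of 1.51 in neurons and 0.581 in microglia. The neuron ratio was 1.12 without the Synpo2 sub-cluster and under 1.5 in 7 settings in all, while that of microglia ran from 0.564 to 0.649. With 1 library per age, neither difference between classes was tested.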

How the results depend on the processing

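Each value was recomputed under settings fixed at the start and under 4 chosen after seeing the data (leaving out the young-only fibroblast cluster, a neuron sub-cluster led by Pdzrn3 and Slc17a7 with 1 aged and 73 young nuclei, the neuron sub-cluster whose loss brings a gene's ratio nearest to 1, or Col25a1). Of 170 recomputed values for single genes under the former, 163 kept to the counting interval of the value reported. Of the 20 named ratios, 9 were under 1.5-fold in some setting. The ratio of Col6a1 in neurons ran from 1.54 to 1.74 and that of Col27a1 in microglia from 0.564 to 0.649. Direction turned for Col1a2 in neurons (1.67 with free RNA subtracted) and for Col4a5 in fibroblasts (0.909 at a mitochondrial limit of 1% and 0.922 without the young-only cluster). The cause was not tested.

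Summed ratios moved to 1.07 (free RNA subtracted) and 1.02 (without Col25a1) in neurons, 1.19 (doublets kept) in oligodendrocytes, 0.581 (each library clustered alone, where aged mural nuclei joined the fibroblasts) and 1.73 (free RNA subtracted) in vascular nuclei, and 1.27 (mitochondrial limit of 1%), 0.738 (clustered alone) and 1.39 (without Col25a1) in fibroblasts. Counts of collagen genes past the fold moved as follows. No share over all genes is given for these settings, so the counts do not set collagens apart from other genes. With a fold of 2 they were 2 in neurons, 1 in precursors, 3 in oligodendrocytes, 2 in astrocytes and 1 in microglia. With a minimum of 50 UMIs they were 1 in precursors, 3 in oligodendrocytes, 0 in astrocytes, 1 in microglia and 4 in fibroblasts, and with 1 UMI 21, 27, 23, 26 and 27, with 18 in vascular nuclei. At a minimum of 1 UMI, a gene counted in 1 library only is past the fold by default. Astrocytes had 1 with free RNA subtracted and 3 without the top nucleus, microglia had 5 with doublets kept, and fibroblasts had 4 at the mitochondrial limit of 1% and 6 without the young-only cluster. Vascular nuclei had 1 with at least 1000 UMIs per nucleus, 2 when clustered alone and 1 with free RNA subtracted. No paired analysis was possible because each age has 1 library. Depth left 2 collagen genes with at least 20 UMIs in vascular nuclei, 4 in microglia and 11 in astrocytes.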
